A study of Mus musculus with 18 samples.

Results

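Imprinted genes were taken as 40 genes named by symbol, of 54446 genes in the count tables, and were found by matching Ensembl identifiers without their version to the GENCODE M21 mouse annotation. They belong to 18 imprinted clusters or single loci, 25 of them with the paternal allele expressed and 15 with the maternal allele. All 40 were found, 35 had a read in at least 1 of the 18 libraries, and 31 passed the filter on low counts and were tested. The reads were not separated by allele, so the parental origin used here is textbook background and was not measured in these cells.

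Genomic imprinting is the expression of a gene from only one of the parental chromosomes. It rests on DNA methylation that is placed on one parental copy of a control region in the germ line and is then kept through development, with the zinc finger protein ZFP57, its partner TRIM28 and the maintenance methyltransferase DNMT1 among the proteins that hold it. Many clusters carry a long non-coding RNA that is made from one parental chromosome and keeps its neighbours silent there, and imprints are known to be unstable in cultured embryonic stem cells. TET2 oxidises 5-methylcytosine, in RNA as well as in DNA. For some of the genes, such as *Ube3a*, *Gnas* and *Kcnq1*, imprinted expression holds only in certain tissues or stages.

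The 18 libraries held nascent RNA of mouse embryonic stem (mES) cells, WT or *Tet2*-/- (labelled *Tet2*-KO), that had been labelled with 1 mM 5-ethynyl uridine (EU), a uridine analogue taken up into new RNA, for 10, 20 or 40 min, with 3 replicate dishes in each of the 6 groups. Both genotypes were kept in the same serum medium with leukaemia inhibitory factor, the GSK3 inhibitor CHIR99021 and the MEK inhibitor PD0325901, and were taken off feeder cells by passage on gelatin. The EU-labelled RNA was biotinylated, captured and given ERCC RNA, a synthetic spike-in. No second line of either genotype is named, so the replicates are dishes, the p-values measure the spread between dishes, and genotype and line cannot be told apart.

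Each library held 17931614 to 23069143 reads on genes and 44162 to 512186 reads on ERCC transcripts. *Tet2* itself had 13117 to 17092 reads in WT and 9730 to 13011 in *Tet2*-KO libraries, and a total over the whole gene does not show whether a part is deleted, so the genotypes are those of the labels. A list of 4 Y-linked genes summed to 45.8 to 58.2 RPM (reads per 1000000 reads on genes) in WT and to 0.781 to 2.28 in *Tet2*-KO, so the lines also differed in this. Pluripotent stem cell markers summed to 3120 to 3300 RPM in WT and to 2240 to 2370 in *Tet2*-KO. As a share of gene reads, 2 of 9 tested markers were higher and 7 lower, from *Utf1* (log2 fold change 0.25) to *Zfp42* (-2.25). Of all genes tested, 24.6% were higher and 32.0% lower on this scale. Per ERCC read, 6 of the 9 were higher and 1, *Zfp42* (-1.52), was lower, with 80.5% and 4.15% of all genes. The part of these differences in the results below was not tested.

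Levels are given in 2 ways. The share of gene reads, in RPM, leaves out any change common to all genes. The level per 1000 ERCC reads keeps such a change relative to total RNA. By the paper's methods, the ERCC amount was set in proportion to the total RNA of each sample, so this level is not per cell. Log2 fold changes are *Tet2*-KO over WT, with calls from the quasi-likelihood test of edgeR at a Benjamini-Hochberg adjusted p under 0.05 over all 19910 genes tested. A member said to be higher by a value differs by it on the log2 scale of the share. The median log2 fold change of all genes was -0.04 on the share and 0.70 per ERCC read. In bulk cells, less RNA per cell cannot be told apart from fewer cells that make it.

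The start sites of 7 members whose share differed are shown first, since imprints are carried by CG methylation at control regions, some of which overlap promoters. Where a gene has several RefSeq starts, the one with the most CG is shown. Each window runs from 250 bases before to 50 after a RefSeq start on GRCm38.p6, 5' to 3' in the direction of the gene, with CG dinucleotides in capitals. *Mest*, *Plagl1*, *Peg3*, *Kcnq1ot1* and *Airn* are paternally expressed and were higher in *Tet2*-KO, and *Slc22a18* and *Grb10* are maternally expressed and had a lower share.
*Mest*, chr6:30737800-30738099, plus strand: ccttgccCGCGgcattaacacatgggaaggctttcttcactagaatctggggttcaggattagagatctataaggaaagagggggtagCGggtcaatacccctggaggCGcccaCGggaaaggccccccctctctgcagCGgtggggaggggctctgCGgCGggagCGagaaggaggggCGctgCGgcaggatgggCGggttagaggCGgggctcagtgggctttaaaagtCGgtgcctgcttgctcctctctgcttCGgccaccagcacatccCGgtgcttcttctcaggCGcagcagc
*Plagl1*, chr10:13090582-13090881, plus strand: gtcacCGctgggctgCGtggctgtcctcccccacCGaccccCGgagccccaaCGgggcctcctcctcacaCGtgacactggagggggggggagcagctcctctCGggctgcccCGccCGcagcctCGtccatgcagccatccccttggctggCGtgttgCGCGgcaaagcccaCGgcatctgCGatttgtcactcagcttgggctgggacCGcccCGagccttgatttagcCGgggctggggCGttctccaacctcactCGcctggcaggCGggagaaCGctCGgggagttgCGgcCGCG
*Peg3*, chr7:6730370-6730669, minus strand: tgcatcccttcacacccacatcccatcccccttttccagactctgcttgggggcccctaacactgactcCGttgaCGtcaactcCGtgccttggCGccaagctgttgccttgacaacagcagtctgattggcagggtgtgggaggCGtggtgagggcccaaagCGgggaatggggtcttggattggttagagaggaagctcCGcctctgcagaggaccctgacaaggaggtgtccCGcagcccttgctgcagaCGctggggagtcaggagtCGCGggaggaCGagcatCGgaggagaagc
*Kcnq1ot1*, chr7:143296498-143296797, minus strand: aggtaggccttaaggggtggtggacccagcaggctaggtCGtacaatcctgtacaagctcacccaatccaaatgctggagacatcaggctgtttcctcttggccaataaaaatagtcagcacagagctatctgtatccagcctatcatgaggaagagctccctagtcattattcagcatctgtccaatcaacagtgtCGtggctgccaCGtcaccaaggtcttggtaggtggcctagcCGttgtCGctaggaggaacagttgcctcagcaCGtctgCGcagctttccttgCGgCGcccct
*Airn*, chr17:12741061-12741360, plus strand: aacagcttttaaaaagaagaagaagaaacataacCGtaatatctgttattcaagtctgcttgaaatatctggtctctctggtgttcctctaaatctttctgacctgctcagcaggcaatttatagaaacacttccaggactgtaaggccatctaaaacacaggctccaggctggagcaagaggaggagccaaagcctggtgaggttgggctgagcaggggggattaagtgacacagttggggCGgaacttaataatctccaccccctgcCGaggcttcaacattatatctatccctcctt
*Slc22a18*, chr7:143473539-143473838, plus strand: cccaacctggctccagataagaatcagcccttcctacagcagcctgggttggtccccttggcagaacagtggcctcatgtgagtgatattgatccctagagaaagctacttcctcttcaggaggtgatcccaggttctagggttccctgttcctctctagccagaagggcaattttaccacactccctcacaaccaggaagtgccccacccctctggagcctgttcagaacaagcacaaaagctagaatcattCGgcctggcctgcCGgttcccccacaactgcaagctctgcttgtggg
*Grb10*, chr11:12037371-12037670, minus strand: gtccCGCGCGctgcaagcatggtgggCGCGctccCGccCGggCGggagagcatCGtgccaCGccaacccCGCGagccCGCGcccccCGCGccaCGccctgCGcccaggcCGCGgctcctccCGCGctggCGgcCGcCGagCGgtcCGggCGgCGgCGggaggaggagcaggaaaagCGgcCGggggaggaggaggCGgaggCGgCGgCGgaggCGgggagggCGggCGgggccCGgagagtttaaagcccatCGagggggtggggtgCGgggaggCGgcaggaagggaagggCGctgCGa

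These windows held 17 CG dinucleotides in *Mest*, 26 in *Plagl1*, 13 in *Peg3*, 9 in *Kcnq1ot1*, 3 in *Airn*, 2 in *Slc22a18* and 45 in *Grb10*, beside a median of 7 over all 32851 windows of 300 bases and of 13 over the 47 windows of the 31 members matched outside chromosome 18. The letters TGCCGC, known as the ZFP57 motif, were searched on both strands, with GCGGCA as the reverse complement. They were found in 11.6% of all windows and in 12 of the 47 windows of members, or in 10 of 44 when overlapping windows of a strand are counted as 1 (*Snrpn* and *Snurf* share a window, a pair of *Mest* windows lie 3 bases apart, and a pair of *Gnas* windows overlap). The motif itself holds a CG, and the windows of members hold more CG, so all windows are not a like background. The part of CG content in this difference was not tested. Of the 7 windows printed, those of *Mest* (2 matches), *Plagl1* (1) and *Grb10* (1) held them and the other windows did not. The start of *Grb10* that is not shown (chr11:12027922-12028221) had 9 CG and an upstream start of *Mest* (chr6:30733256-30733555) 8, with no match in either. A match is a description of the letters and not of binding. GENCODE M21 starts some of these genes elsewhere, as for *Plagl1*, whose annotated span begins upstream of the window shown.

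On the share of gene reads, averaged over the 3 labelling times, 17 of the 31 tested members were higher in *Tet2*-KO and 10 were lower, where 24.6% of all genes tested were higher and 32.0% lower. The paternally expressed members made up most of the higher ones. Of 18 tested paternally expressed members, 14 were higher and 2, *Nnat* and *Rtl1*, were lower, with a median log2 fold change of 0.46. Of 13 tested maternally expressed members, 3, *Zim1*, *H19* and *Kcnq1*, were higher and 8 were lower, with a median of -0.14. These counts are of members and not of separate loci. *Meg3*, *Rian* and *Mirg*, of the same cluster, were among the lower ones. The same-cluster pairs *Peg3* and *Usp29*, and *Peg10* and *Sgce*, were among the higher paternally expressed ones. *Ube3a*, *Igf2r*, *Peg12* and *Ndn* were not called. At every labelling time, the 3 *Tet2*-KO libraries lay wholly above the 3 WT libraries for 13 members and wholly below for 6, where 11.8% and 13.9% of all genes tested did so. Of these, 12 of the higher and 1 of the lower members were paternally expressed, and 1 of the higher and 5 of the lower were maternally expressed.

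**Figure D1:**
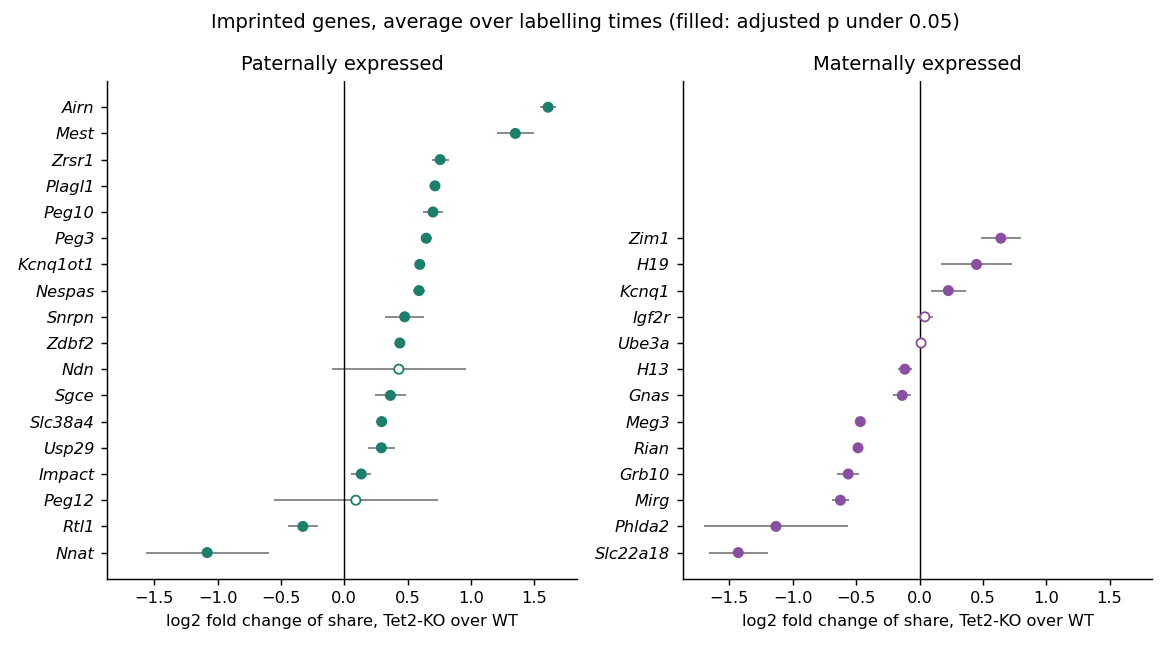
Log2 fold change of the share of gene reads, *Tet2*-KO over WT, averaged over the 3 labelling times, for 18 paternally (left) and 13 maternally (right) expressed members, with lines for the 95% interval and filled points for an adjusted p under 0.05. Most paternally expressed members lie to the right of 0, up to *Airn* at 1.61, and most maternally expressed ones to the left, down to *Slc22a18* at -1.43. Per ERCC read, *Meg3*, *Rian*, *Grb10*, *Rtl1*, *Gnas* and *H13* were called higher, while *Mirg* had a value above 0 that was not called.

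Per ERCC read, 27 of the 31 tested members were higher in *Tet2*-KO and 1, *Slc22a18*, was lower, where 80.5% of all genes tested were higher and 4.15% lower. *Mirg*, *Phlda2* and *Nnat* were not called on this scale. The direction of *Meg3*, *Rian*, *Rtl1*, *Grb10*, *Gnas* and *H13* depended on the scale, since on average over labelling times all of these were lower as a share and higher per ERCC read. The median over the tested members was 1.03, beside 0.70 over all genes. It was 1.19 over the paternally expressed and 0.60 over the maternally expressed members, so that the median of the maternally expressed ones lay below that of all genes.

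The largest difference in share among the 31 tested members was in *Airn*, the paternally made antisense RNA of the *Igf2r* locus. It is known to silence *Igf2r* on the chromosome that makes it, and whether it did so in these cells was not measured. *Airn* (chr17:12741311-12860136, plus strand, GRCm38) had shares of 26.1, 27.4 and 25.9 after 10 min, 26.8, 26.5 and 28.7 after 20 min and 30.6, 29.2 and 27.2 after 40 min in WT. In *Tet2*-KO its shares were 79.8, 77.3 and 75.9 after 10 min, 88.2, 83.5 and 90.8 after 20 min and 88.3, 85.6 and 88.8 after 40 min. The groups did not overlap, and every *Tet2*-KO library was above every WT library. Averaged over labelling times, the log2 fold change was 1.61 (s.e. 0.03, adjusted p = 9.87e-30) on the share and 2.34 ± 0.06 (s.e.) per ERCC read. *Igf2r*, the receptor that clears the growth factor IGF2, lies on the opposite strand (chr17:12682406-12769664) and had shares of 53 to 64.8 (median 58.1) in the 9 WT libraries and 52.3 to 66.5 (median 60.6) in the 9 *Tet2*-KO libraries. Its groups overlapped, and its log2 fold change was 0.04 (s.e. 0.03, adjusted p = 0.292), with a 95% interval from -0.02 to 0.11. Per kb of gene span, the mean share of *Airn* was 0.234 RPM in WT and 0.715 in *Tet2*-KO, and that of *Igf2r* was 0.662 and 0.683. *Airn* thus went from below to slightly above *Igf2r* in level per length.

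**Figure D2:**
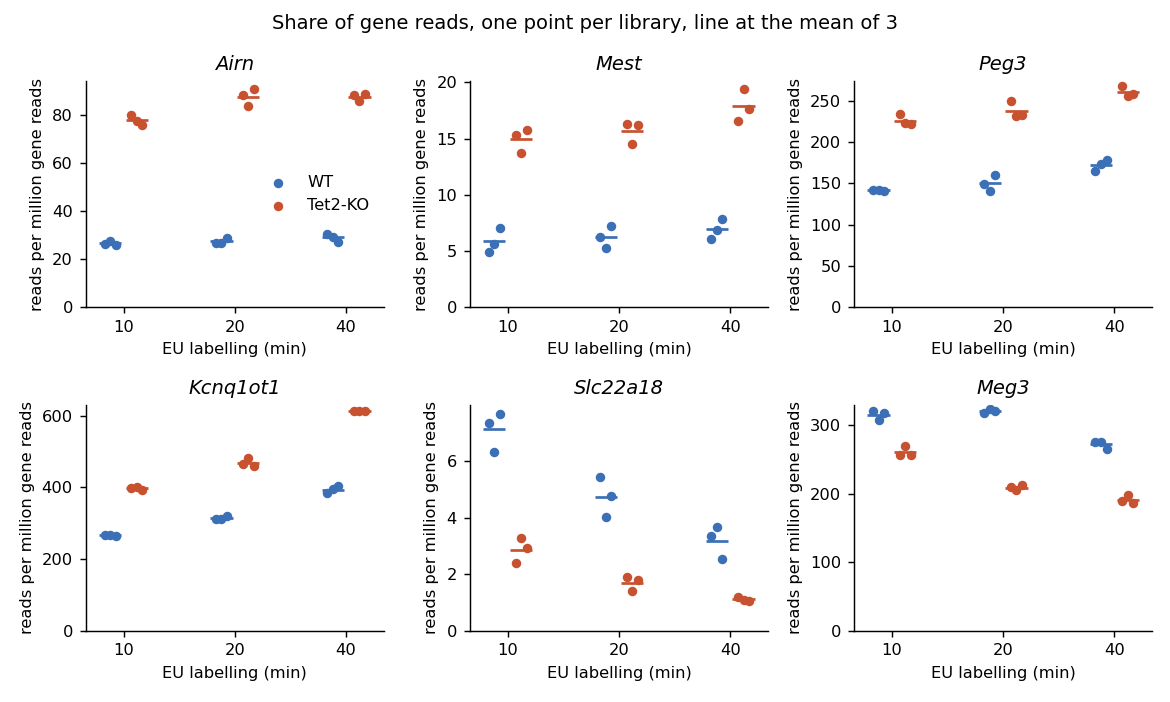
Share of gene reads (RPM, axis from 0) of 6 members against EU labelling time, with a point for each library, a line at the mean of the 3 replicates, WT in blue and *Tet2*-KO in red. *Airn*, *Mest*, *Peg3* and *Kcnq1ot1* are higher in every *Tet2*-KO library of each time, and *Slc22a18* and *Meg3* are lower, although per ERCC read *Meg3* is higher in *Tet2*-KO at 10 min (0.75) and on average (0.27) and has a value of -0.13 at 20 min.

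In the *Kcnq1* cluster the paternally made *Kcnq1ot1* was higher and the maternally expressed *Slc22a18* and *Phlda2* were lower. *Kcnq1ot1* (chr7:143203458-143296549, minus strand) is an unspliced antisense RNA known to keep the genes around it silent on the paternal chromosome, which was not measured in these cells. Its shares were 267, 267 and 264 after 10 min, 313, 312 and 321 after 20 min and 384, 395 and 403 after 40 min in WT. The *Tet2*-KO libraries gave 398, 401 and 392 after 10 min, 464, 481 and 460 after 20 min and 613, 612 and 613 after 40 min. No *Tet2*-KO library overlapped a WT library of the same time, and the log2 fold change was 0.60 (s.e. 0.01, adjusted p = 1.16e-27). *Slc22a18* (chr7:143473736-143499334, plus strand), a membrane protein related to organic cation transporters, had shares of 7.36, 6.33 and 7.66 after 10 min, 5.45, 4.01 and 4.75 after 20 min and 3.34, 3.67 and 2.53 after 40 min in WT. In *Tet2*-KO they were 2.4, 3.27 and 2.94 after 10 min, 1.91, 1.4 and 1.8 after 20 min and 1.21, 1.09 and 1.06 after 40 min. At each time the groups were apart, with *Tet2*-KO below WT. Its log2 fold change was -1.43 (s.e. 0.12, adjusted p = 2.66e-12) on the share and -0.70 (s.e. 0.14, adjusted p = 1.88e-06) per ERCC read, and it was the only member called lower on that scale. *Phlda2*, a pleckstrin homology protein known to limit placental growth, had few reads, 7 to 30 reads in WT and 3 to 18 in *Tet2*-KO libraries. Its shares in WT were 0.314, 0.764 and 1.37 after 10 min, 1.02, 0.898 and 0.792 after 20 min and 0.607, 1.32 and 1.26 after 40 min. Those in *Tet2*-KO were 0.801, 0.777 and 0.577 after 10 min, 0.423, 0.311 and 0.565 after 20 min and 0.158, 0.148 and 0.39 after 40 min. The groups overlapped at 10 min and not at 20 and 40 min. The average log2 fold change was -1.13 (s.e. 0.29, adjusted p = 0.00116) on the share, and per ERCC read it was not called (-0.41, adjusted p = 0.2). *Kcnq1*, a potassium channel subunit with *Kcnq1ot1* antisense inside it, was higher by 0.23 ± 0.07 (s.e.). Per kb, *Kcnq1* had a mean share of 0.0366 in WT and 0.0427 in *Tet2*-KO, against 3.49 and 5.29 for *Kcnq1ot1*. The part of *Kcnq1ot1* reads assigned to the wrong strand in the value of *Kcnq1* was not tested. *Cdkn1c*, an inhibitor of cyclin-dependent kinases, had 1 to 9 reads in WT and 0 to 7 in *Tet2*-KO libraries, and *Ascl2*, a trophoblast transcription factor, had 1 to 9 reads in WT and 1 to 9 in *Tet2*-KO libraries. Neither was tested.

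The *Gnas* locus also holds a pair on opposite strands. *Nespas* (chr2:174281237-174295436, minus strand), a paternally made antisense RNA, had shares of 132, 118 and 127 after 10 min, 137, 139 and 149 after 20 min and 169, 155 and 146 after 40 min in WT. Its *Tet2*-KO shares were 191, 181 and 183 after 10 min, 212, 214 and 213 after 20 min and 244, 232 and 251 after 40 min. All *Tet2*-KO libraries lay above all WT libraries, with a log2 fold change of 0.59 (s.e. 0.02, adjusted p = 2.59e-20). *Gnas*, which codes for the stimulatory G protein alpha subunit, had a log2 fold change of -0.14 ± 0.04 (s.e.) as a share, that is lower, and was higher per ERCC read (0.60). The count of *Gnas* sums all transcripts of its strand over a span with several RefSeq starts, and these were not separated. Per kb, the mean share was 9.96 in WT and 15 in *Tet2*-KO for *Nespas*, and 0.702 and 0.638 for *Gnas*.

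The *Dlk1*-*Meg3* cluster on chromosome 12 went the other way as a share. Its 4 tested members, among them 3 non-coding RNAs of the maternal chromosome, were all called lower. *Meg3* (chr12:109541001-109571726) had the highest share per kb of the tested members in WT, 9.97, close to *Nespas*. *Meg3* shares were 321, 307 and 318 after 10 min, 318, 323 and 321 after 20 min and 276, 275 and 265 after 40 min in WT. Its shares in *Tet2*-KO were 257, 269 and 256 after 10 min, 210, 205 and 212 after 20 min and 189, 198 and 187 after 40 min. No libraries of the same time overlapped between genotypes, and the log2 fold change was -0.47 (s.e. 0.02, adjusted p = 1.64e-22) on the share but 0.27 ± 0.05 (s.e.), that is higher, per ERCC read. *Rian*, which hosts small nucleolar RNAs downstream of *Meg3*, was lower as a share, with a log2 fold change of -0.49 ± 0.02, and higher per ERCC read, with 0.25 ± 0.05 (both s.e.). At 20 min the values per ERCC read were below 0 and not called for *Meg3* (-0.13) and *Rian* (-0.07). *Mirg*, the host of a microRNA cluster, had shares of 66, 64.7 and 67 after 10 min, 68.5, 60.9 and 67.5 after 20 min and 57.2, 55.4 and 50.1 after 40 min in WT. In *Tet2*-KO, *Mirg* gave 44, 39.7 and 43 after 10 min, 39, 40.3 and 40.3 after 20 min and 36.2, 38.9 and 39 after 40 min. Every *Tet2*-KO library was below every WT library for *Mirg*, with a log2 fold change of -0.62 (s.e. 0.03, adjusted p = 3.46e-17) on the share. Per ERCC read *Mirg* had 0.11 (s.e. 0.06, adjusted p = 0.0718), which was not called. In the edgeR fit of 20 min alone, *Mirg* was called lower per ERCC read, at -0.23 (adjusted p = 0.0266). Per kb, the mean shares of *Rian* and *Mirg* in WT were 5.01 and 3.33, so *Meg3*, *Rian* and *Mirg* stood in the order of their genome positions. On the paternal side, the retrotransposon-derived *Rtl1* was lower as a share, with a log2 fold change of -0.33 ± 0.06 (s.e.), and higher per ERCC read (0.41). By labelling time, *Rtl1* per ERCC read was called only at 10 min (1.23), with 0.08 at 20 min and -0.09 at 40 min. *Dlk1*, a transmembrane protein related to Notch ligands, had 0 to 10 reads in WT and 1 to 10 in *Tet2*-KO libraries and was not tested.

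In the *Peg3* cluster on chromosome 7 all 3 members were higher, the maternally expressed one included. *Peg3*, a large zinc finger protein, had shares of 142, 142 and 141 after 10 min, 149, 141 and 160 after 20 min and 165, 174 and 178 after 40 min in WT. It had 234, 223 and 222 after 10 min, 250, 232 and 233 after 20 min and 268, 256 and 259 after 40 min in *Tet2*-KO. The genotypes did not overlap, and the log2 fold change was 0.65 (s.e. 0.02, adjusted p = 6.03e-23). *Zim1*, a maternally expressed zinc finger gene beside it, had shares of 7.67, 6.02 and 5.75 after 10 min, 5.45, 6.66 and 6.43 after 20 min and 4.99, 5.82 and 5.05 after 40 min in WT. Its values in *Tet2*-KO were 9.65, 11 and 8.5 after 10 min, 8.31, 10.6 and 9.71 after 20 min and 8.92, 8.36 and 8.81 after 40 min. The *Tet2*-KO libraries of *Zim1* were higher at every time, with a log2 fold change of 0.64 (s.e. 0.08, adjusted p = 3.54e-08). *Usp29*, a ubiquitin protease gene that starts next to *Peg3* and runs the other way, was higher by 0.29 ± 0.05 (s.e.).

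*Mest*, an alpha/beta-hydrolase fold protein gene on chromosome 6, had the second largest increase. Its shares were 4.89, 5.61 and 7.03 after 10 min, 6.21, 5.23 and 7.22 after 20 min and 6.07, 6.85 and 7.87 after 40 min in WT. They were 15.3, 13.7 and 15.8 after 10 min, 16.3, 14.5 and 16.2 after 20 min and 16.6, 19.4 and 17.6 after 40 min in *Tet2*-KO. No *Tet2*-KO library of *Mest* came below 13.7 and no WT library above 7.87, and the log2 fold change was 1.35 (s.e. 0.08, adjusted p = 8.55e-17) on the share and 2.09 ± 0.09 (s.e.) per ERCC read. In the *Peg10*-*Sgce* cluster of the same chromosome, *Peg10*, a retrotransposon-derived gene needed in the placenta, had shares of 24.9, 27.1 and 23.2 after 10 min, 25.6, 26.5 and 23.8 after 20 min and 26.2, 29 and 25.5 after 40 min in WT. Its *Tet2*-KO libraries had 41.9, 39.7 and 40.1 after 10 min, 42.1, 45 and 40.6 after 20 min and 42.1, 42.4 and 42.3 after 40 min. Again the groups were apart, with a log2 fold change of 0.70 (s.e. 0.04, adjusted p = 1.3e-16). *Sgce*, which codes for epsilon-sarcoglycan and starts next to *Peg10* in the opposite direction, was higher by 0.36 ± 0.06 (s.e.).

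*Plagl1*, a zinc finger transcription factor gene on chromosome 10 that is known to act on other imprinted genes, had shares of 223, 216 and 226 after 10 min, 267, 259 and 271 after 20 min and 274, 269 and 272 after 40 min in WT. *Plagl1* shares in *Tet2*-KO were 389, 374 and 394 after 10 min, 420, 431 and 441 after 20 min and 427, 417 and 433 after 40 min. The groups were far apart against the spread of the replicates, with a log2 fold change of 0.72 (s.e. 0.02, adjusted p = 2.04e-28). *Zrsr1*, a retrogene for a splicing factor that lies in an intron of *Commd1* on chromosome 11, had shares of 36.3, 34.9 and 38.2 after 10 min, 34.9, 33.7 and 36.8 after 20 min and 42.7, 45.4 and 40.4 after 40 min in WT. *Zrsr1* had 59, 58.9 and 55.4 after 10 min, 65, 64.2 and 64.9 after 20 min and 68.6, 66.7 and 77.5 after 40 min in *Tet2*-KO. All *Tet2*-KO libraries were above all WT libraries, with a log2 fold change of 0.76 (s.e. 0.03, adjusted p = 2.81e-19). *Grb10*, an adaptor that dampens insulin and IGF receptor signalling, had shares of 36.9, 31.8 and 39.5 after 10 min, 31.5, 30.3 and 31 after 20 min and 36, 33.8 and 31.7 after 40 min in WT. *Grb10* shares were 22.7, 22.1 and 22 after 10 min, 24.9, 25 and 23.9 after 20 min and 21.2, 21.8 and 21.1 after 40 min in *Tet2*-KO. The *Tet2*-KO libraries were lower at every time, with a log2 fold change of -0.56 (s.e. 0.04, adjusted p = 3.05e-13) on the share, while per ERCC read *Grb10* was higher, at 0.17 (s.e. 0.07, adjusted p = 0.0108). *Nnat*, a small membrane protein gene in an intron of *Blcap*, was the paternally expressed member with the lowest value. It had only 15 to 34 reads in WT and 6 to 16 in *Tet2*-KO libraries, with shares of 1.44, 0.809 and 1.28 after 10 min, 1.22, 1.8 and 0.931 after 20 min and 1.21, 0.734 and 0.777 after 40 min in WT. *Nnat* in *Tet2*-KO gave 0.578, 0.721 and 0.42 after 10 min, 0.318, 0.414 and 0.822 after 20 min and 0.686, 0.445 and 0.335 after 40 min. The groups did not overlap at any labelling time, with a log2 fold change of -1.08 (s.e. 0.25, adjusted p = 0.000354) on the share, and *Nnat* was not called per ERCC read (-0.35).

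Of the *Snrpn* cluster, *Snrpn*, which codes for a spliceosome protein, was higher by 0.48 ± 0.08 (s.e.) as a share. This rests on 97 to 209 reads in WT and 124 to 294 in *Tet2*-KO libraries. On its own strand, 14.3% of the *Snrpn* span is shared with *Gm38393* and *Snurf*, and the count described below leaves reads there unassigned. The value of *Snrpn* thus describes the rest of its span, and the shared stretch was not measured for it. *Ube3a*, a ubiquitin ligase gene, had a log2 fold change of 0.01 (s.e. 0.02, adjusted p = 0.637) with a 95% interval from -0.03 to 0.05, from 3011 to 4297 reads in WT and 2434 to 3903 in *Tet2*-KO libraries. *Ndn* (necdin) and *Peg12* had few reads, 3 to 30 reads in WT and 12 to 24 in *Tet2*-KO libraries for *Ndn* and 4 to 38 reads in WT and 7 to 15 in *Tet2*-KO libraries for *Peg12*. Their intervals were wide, from -0.10 to 0.96 for *Ndn* and from -0.55 to 0.74 for *Peg12*, and both hold 0 as well as the value of *Peg10*, so a difference was not detectable at this depth. *Magel2* had 1 to 6 reads in WT and 0 to 7 in *Tet2*-KO libraries and was not tested.

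The other single loci differed less. *Zdbf2*, a zinc finger gene, was higher by 0.44 ± 0.02 (s.e.), *Slc38a4*, an amino acid transporter, by 0.30 ± 0.02, and *Impact*, a regulator of translation, by 0.13 ± 0.04. The growth-limiting maternal RNA *H19* was higher by 0.45 ± 0.14 from 28 to 55 reads in WT and 39 to 77 in *Tet2*-KO libraries. *H13*, the signal peptide peptidase gene, was lower as a share, with a log2 fold change of -0.12 ± 0.03, and higher per ERCC read, with 0.62 ± 0.06 (both s.e.).

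*Igf2*, *Snurf*, *Mkrn3*, *Peg13* and *Mcts2* had no read in any of the 18 libraries, and their position matters for this. Each lies, on its own strand, inside a longer gene, save for 3 bases of *Igf2*. Of 452 protein-coding genes inside a gene of the same strand, 451 (99.8%) had no read, and of 241 of these that share no exon with such a gene, 240 (99.6%) had none. Of 738 genes inside a gene of the opposite strand only, 84 (11.4%) had none. A count over whole gene spans, by strand, leaves reads in such overlaps unassigned, so these zeros do not measure silence. The host genes gave 0 to 7 reads for *Gm49394* around *Igf2* in WT, and log2 fold changes on the share of 0.43 for *Gm38393* around *Snurf* (adjusted p = 1.16e-08), -0.24 for *Trappc9* around *Peg13* (adjusted p = 6.82e-15), -0.12 for *H13* around *Mcts2* and 0.05 for *Gm32061* around *Mkrn3* (adjusted p = 0.865). *Sox2*, a pluripotency marker that lies inside *Sox2ot* on the same strand, was likewise at 0 in all libraries. A count by strand also separates the antisense pairs *Airn* and *Igf2r*, *Kcnq1ot1* and *Kcnq1*, and *Nespas* and *Gnas*. How many reads fall on the wrong strand was not measured, so the separation may not be complete. This matters most for *Kcnq1*, with 163 to 358 reads in WT libraries beside 5787 to 8856 for *Kcnq1ot1*.

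Members were set beside the tested protein-coding genes within 1 Mb of their cluster that are neither members nor on a list of other imprinted or imprint-neighbouring genes, as a description. The median of these neighbours lay between -0.26 beside *Plagl1* and 0.43 beside the *Snrpn* cluster, which had only 3. That median of 0.43 is the value of *Gm38393*, which lies around the member *Snurf* and overlaps *Snrpn* on the same strand. It is thus not separate from the cluster. *Airn* (1.61) lay above all 14 of its neighbours, which reached 0.22. *Mest* (1.35) was above its 13 neighbours, the highest at 0.92, and 9 of these 13 were themselves called higher. *Plagl1* (0.72) was above its 11 neighbours, which ran from -0.77 to 0.31. *Nespas* (0.59) was above its 14, up to 0.36. On the lower side, *Mirg* (-0.62), *Rian* (-0.49) and *Meg3* (-0.47) were below all 12 neighbours of their cluster, the lowest at -0.38. *Slc22a18* (-1.43) was below its 17, although one of them reached -1.34 and *Th*, which is on that list, was at -1.94. *Peg3* (0.65), *Grb10* (-0.56) and *Zdbf2* (0.44) lay within the range of their neighbours. Of the listed genes left out of these counts, 22 tested ones lay within 1 Mb of a cluster. *Copg2* next to *Mest* was at -0.12, *Blcap* around *Nnat* at -0.48, *Commd1* around *Zrsr1* at -1.58 and *Dio3* near *Meg3* at 1.06. Of these, *Commd1* had only 5 to 32 reads in WT and 1 to 10 in *Tet2*-KO libraries, and *Dio3* 1 to 23 and 8 to 26. *Gm28048* (-0.205) also overlaps *Zrsr1* on the strand of *Commd1*, and reads shared by *Commd1* and *Gm28048* would be left unassigned. With the listed genes counted in, *Airn*, *Mest*, *Plagl1* and *Nespas* remained above all tested protein-coding genes around their clusters that are not members. *Mirg*, *Rian* and *Meg3* remained below all such genes. So did *Nnat* (-1.08), where the lowest was -0.73, and *Zrsr1* (0.757) was barely above the highest, at 0.755. Non-coding genes around the clusters were not compared.

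**Figure D3:**
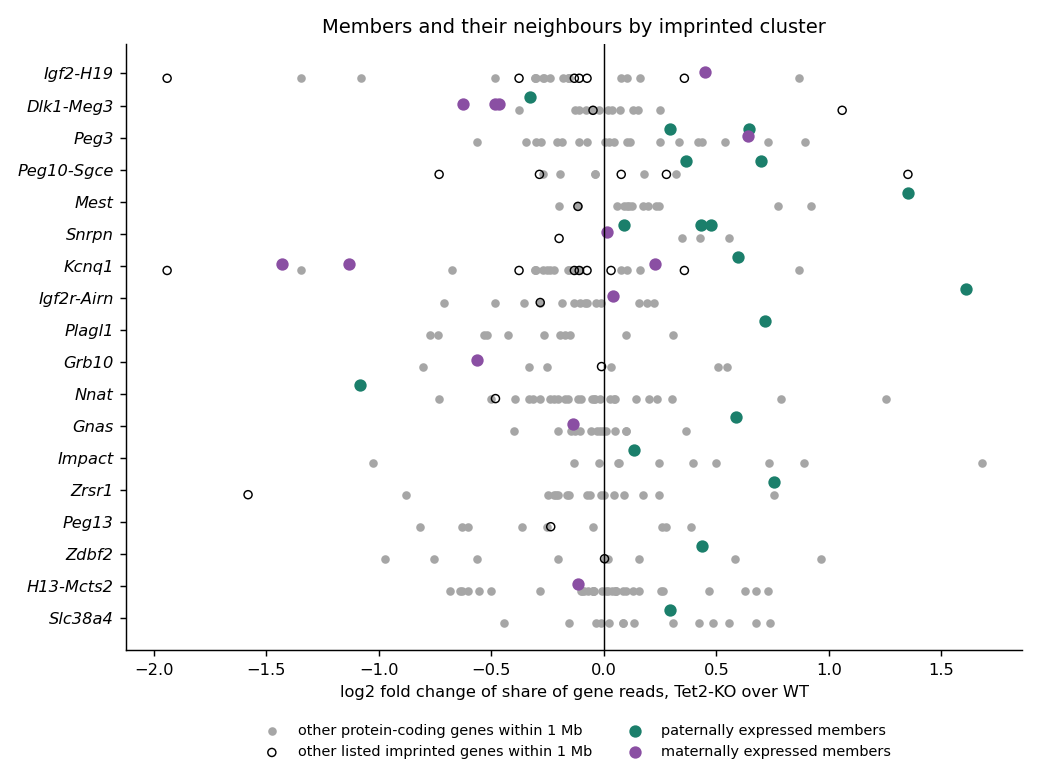
Log2 fold change of the share of gene reads, *Tet2*-KO over WT and averaged over labelling times, by imprinted cluster, with paternally expressed members in green, maternally expressed ones in purple, other tested protein-coding genes within 1 Mb in grey and, among these, other listed imprinted genes as open circles. *Airn*, *Mest*, *Plagl1* and *Nespas* lie above all their neighbours, and *Meg3*, *Rian* and *Mirg* below theirs. Per ERCC read, *Meg3* and *Rian* were called higher on average and *Mirg* was not called. *Slc22a18* is below the grey points and above *Th* (-1.94).

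The level per 1000 ERCC reads was followed over labelling time. *Airn* stood in WT at 1.24 ± 0.143 (mean ± SD, n = 3) after 10 min, 4.02 ± 0.147 after 20 min and 7.17 ± 0.581 after 40 min, and *Tet2*-KO cells gave 7.41 ± 0.418, 18 ± 1.14 and 34.8 ± 3.31. The slope of its level on labelling time was 0.192 ± 0.0143 (s.e., 9 libraries) per min in WT and 0.903 ± 0.0544 in *Tet2*-KO, a ratio of 4.71. *Mest* had a ratio of 4.02, *Kcnq1ot1* of 2.48 and *Igf2r* of 1.71. For *Meg3* the WT level went from 14.7 ± 1.01 after 10 min to 47.2 ± 3.03 after 20 min and 67.3 ± 3.85 after 40 min, and that of *Tet2*-KO from 24.8 ± 0.84 to 43 ± 2.48 and 76 ± 4.64 (SD, n = 3). Its slopes were 1.64 ± 0.222 and 1.7 ± 0.0779 (s.e.), which is a ratio of 1.03. Over the 31 members, the slope was larger in *Tet2*-KO for 26, that is 83.9%, beside 87.3% of the 19689 tested genes whose slopes were both above 0, so that the count does not set the members apart. The median ratio was 1.78 over the members and 1.55 over these genes. The members with a smaller slope in *Tet2*-KO were *Phlda2* (0.0963), *Slc22a18* (0.41), *Rtl1* (0.809), *Nnat* (0.934) and *Grb10* (0.943). These slopes are values with no test.

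**Figure D4:**
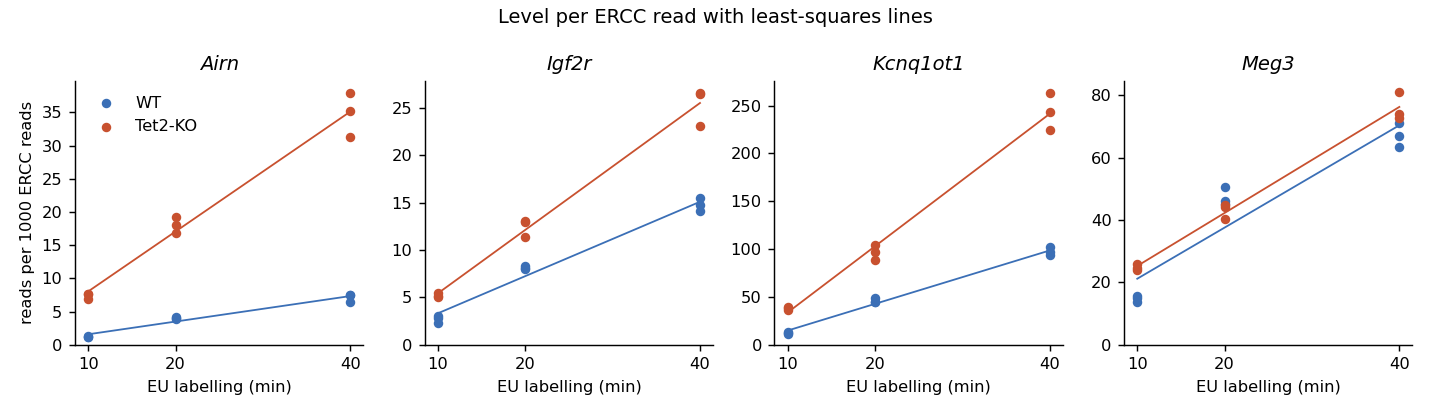
Level in reads per 1000 ERCC reads (axis from 0) against EU labelling time for *Airn*, *Igf2r*, *Kcnq1ot1* and *Meg3*, with a point for each library and a least-squares line per genotype, WT in blue and *Tet2*-KO in red. The *Tet2*-KO line is steeper for *Airn*, *Igf2r* and *Kcnq1ot1* (ratios 4.71, 1.71 and 2.48), and nearly parallel to the WT line for *Meg3* (1.03).

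Taken by labelling time, the share was higher in *Tet2*-KO for 15 members and lower for 6 at 10 min, where 17.9% of all genes were higher and 27.1% lower. At 20 min 13 were higher and 9 lower, with 17.6% and 20.7% of all genes. At 40 min 14 were higher and 7 lower, with 18.9% and 19.6% of all genes. The difference between genotypes in the share changed from 10 to 40 min for 3 members, all towards a lower value, where 5.89% of all genes changed upwards and 3.36% downwards. *Rtl1* changed most, by -0.99 (s.e. 0.15, adjusted p = 3.19e-05). *Rtl1* shares in WT were 9.33, 9.79 and 8.12 after 10 min, 19.5, 22.6 and 19 after 20 min and 20.9, 19.9 and 21.6 after 40 min. In *Tet2*-KO the shares of *Rtl1* were 10.5, 9.6 and 11.3 after 10 min, 14.2, 15.7 and 16.2 after 20 min and 12.9, 10.9 and 12.5 after 40 min. The difference in *Rtl1* was 0.20 ± 0.11 (s.e., not called) at 10 min, -0.40 ± 0.10 at 20 min and -0.78 ± 0.10 at 40 min. The other 2 changes were smaller, -0.23 (s.e. 0.04, adjusted p = 0.000167) for *Meg3* and -0.15 (s.e. 0.04, adjusted p = 0.00779) for *Plagl1*. For *Phlda2* the change was -2.0 (s.e. 0.72, adjusted p = 0.0756) and was not called. Per ERCC read, 9 members changed towards a lower value and none towards a higher one, where 19.3% of all genes changed downwards and 0.552% upwards. The median change over all genes on this scale was -0.29, and over the tested members -0.33. *Phlda2* (-2.38, adjusted p = 0.0144) and *Rtl1* (-1.33) were furthest from it, and *Meg3*, *Plagl1*, *Slc38a4*, *Peg3*, *Rian*, *Impact* and *Zdbf2* lay between -0.58 and -0.38. This count ran from 4 to 16 when a library was left out, with 4 without WT 40 min replicate 2 or KO 40 min replicate 2, 14 without KO 10 min replicate 2, 15 without WT 10 min replicate 2 and 16 without KO 40 min replicate 1, and TMM normalization gave 3.

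The WT libraries of 10 min stood apart in feeder fibroblast markers. The list of 12 summed to 61.0 to 64.0 RPM in them. WT libraries of 20 min gave 27.8 to 30.9 and those of 40 min gave 28.2 to 31.6. The sums in *Tet2*-KO were 23.4 to 29.4, 35.8 to 37.9 and 22.2 to 24.5, in order of time. Of 9 tested markers, 7 were lower in *Tet2*-KO at 10 min, where 27.1% of all genes were lower. At 20 min 6 were higher, where 17.6% of all genes were higher. Averaged over times 2 were higher, up to *Col3a1* (1.05), and 2 lower, down to *Pdgfrb* (-1.57), with 24.6% and 32.0% of all genes. *Lum* had at most 1 read in any library, and *Dcn* at most 6. The part of these markers in the changes of *Rtl1*, *Meg3* and *Plagl1* with labelling time was not tested. *Airn*, *Mest*, *Slc22a18* and *Meg3* were each called in the same direction on the share at 20 and 40 min as at 10 min. This did not hold for all members, as *Rtl1* was not called at 10 min and *Nnat* was not called at 40 min. The part of feeder markers in the differences between genotypes was not tested either.

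Within a genotype, labelling time moved members in both directions. In WT, 10 members had a higher and 8 a lower share at 40 than at 10 min, where 16.1% of all genes were higher and 29.5% lower. TMM and DESeq2 each gave 16 higher in place of 10. In *Tet2*-KO, 11 were higher and 8 lower, with 16.5% and 20.0% of all genes. *Slc22a18* fell by 1.16 in WT and by 1.34 in *Tet2*-KO on the log2 scale, and *Rian* by 0.64 and 0.71. *Usp29* fell by 0.77 and 0.69, and *Sgce* by 0.81 and 0.80, both of them genes that start next to a partner on the other strand. The partners did not fall. From 10 to 40 min, the mean share of *Peg3* went from 142 to 172 in WT and from 226 to 261 in *Tet2*-KO. That of *Peg10* went from 25.1 to 26.9 in WT and from 40.6 to 42.2 in *Tet2*-KO. *Kcnq1ot1* rose by 0.57 in WT and 0.63 in *Tet2*-KO, and *Snrpn* by 0.66 and 1.03. *Rtl1* rose by 1.19 in WT and had a value of 0.21 in *Tet2*-KO, which was not called.

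**Figure D5:**
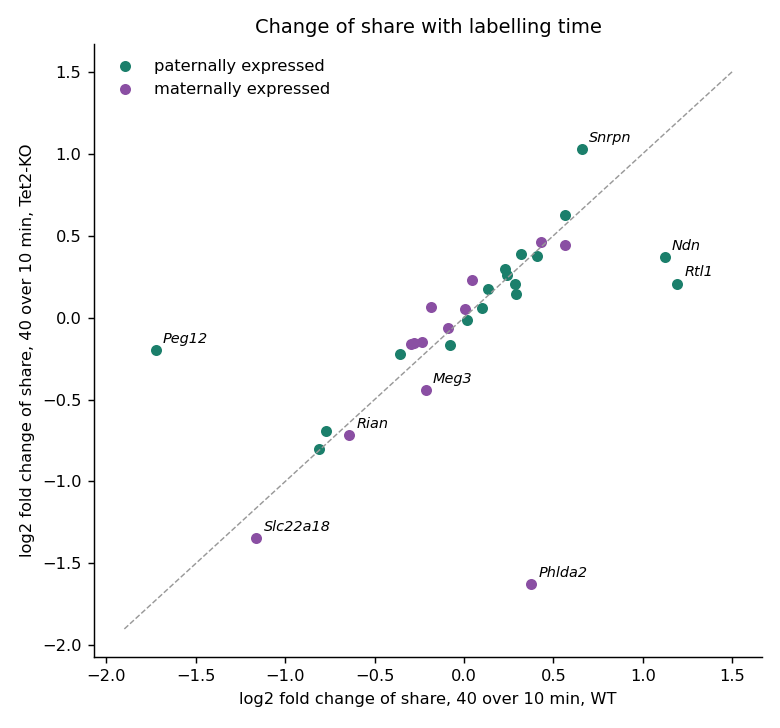
Log2 fold change of the share of gene reads at 40 over 10 min of labelling, with WT on the x axis and *Tet2*-KO on the y axis, a point for each of the 31 tested members and a dashed line where both are equal. Most members lie near the line, and *Rtl1* lies below it (1.19 in WT, 0.21 in *Tet2*-KO), as do *Ndn* and *Phlda2*, which had few reads, while *Peg12*, with 4 to 38 reads in WT, lies above it.

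A further list of 32 imprinted or imprint-neighbouring genes outside the 40 was taken alongside. Of 28 tested, 7 were higher in *Tet2*-KO and 10 lower as a share, close to the 24.6% and 32.0% of all genes, with a median of -0.09. The highest called was *Asb4* (1.35), with 0 to 11 reads in WT and 5 to 21 in *Tet2*-KO, and the lowest was *Th* (-1.94), tyrosine hydroxylase, which lies near the *Igf2* and *Kcnq1* clusters. Of 7 genes that maintain imprints, 2 were higher and 2 lower, from *Trim28* (0.17) to *Dppa3* (-0.84), an oocyte and stem cell factor that guards maternal methylation. *Zfp57* itself had a log2 fold change of -0.01 (adjusted p = 0.349) and *Dnmt1* of 0.01 (adjusted p = 0.658). Among markers of other early lineages, 2 of 6 tested primitive endoderm genes were lower and none was higher, with *Gata4* at -0.42 and *Lama1* at -0.09. Of 5 tested trophectoderm genes 1 was higher, *Gata3* (1.49), and 2 were lower, down to *Krt7* (-0.77). All 4 Y-linked genes were lower, down to *Ddx3y* (-5.79).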

How the data were processed

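Nascent RNA was measured in 18 libraries of mES cells, 3 per genotype and labelling time. The authors trimmed reads with Trimmomatic 0.39, aligned them with HISAT2 2.2.1 to mm10 and the ERCC sequences, counted them on GENCODE M19 genes with HTSeq 0.12.4 and deposited raw counts per gene. The HTSeq settings were inferred from the counts.

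Members and lists were chosen with earlier results of these data known. Of 54446 gene identifiers, 54409 were found in GENCODE M21. Genes kept by filterByExpr (minimum count of 10) were fitted in edgeR 4.0.16 (R 4.3.3) with 1 coefficient per group and library sizes equal to ERCC reads or to reads on all genes. Standard errors are the absolute log2 fold change over the square root of F, and 95% intervals are normal intervals from these. Values in every library are given for members called on the average share with an absolute log2 fold change of at least 0.5. The fit was tested on simulated data. Alternatives were TMM, DESeq2 1.42.0, other filters, a replicate block, single labelling times, other totals and leaving out each library. In every pair of replicates the counts differed beyond sampling noise (mean chi-square per gene 1.66 to 5.52). The ERCC concentrations, which the authors used to convert CPM, were not used here. Reads are not independent molecules, and 13.16 to 16.88% of reads fell on no feature and 2.32 to 2.5% were ambiguous.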

Additional observations from a re-analysis of the deposited data

Results flagged for a closer look

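The difference between genotypes in the share of gene reads changed with labelling time, by a test of the interaction in edgeR, in 3 imprinted genes. The change of the log2 fold change from 10 to 40 min was -0.99 for *Rtl1*, -0.23 for *Meg3* and -0.15 for *Plagl1*. Per ERCC read it changed in 9, by -2.38 for *Phlda2*, -1.33 for *Rtl1*, -0.58 for *Meg3*, -0.50 for *Plagl1*, -0.43 for *Slc38a4*, -0.42 for *Peg3*, -0.42 for *Rian*, -0.38 for *Impact* and -0.38 for *Zdbf2*, where the median over all genes was -0.29. With 3 libraries per group, no test for a single library far from its group was made.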

How the results depend on the processing

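The numbers of members higher and lower stayed within 1.5 times in all but a few alternatives. Per ERCC read, where 1 member was lower, TMM normalization, which removes the change common to all genes, gave 10, and fits of a single labelling time gave 0 at 10 min, 2 at 20 min and 2 at 40 min. On the share, where 10 were lower, the fit of 10 min alone gave 5. Where 10 members were higher at 40 than at 10 min in WT, TMM and DESeq2 each gave 16. The test of the change from 10 to 40 min per ERCC read, and its alternatives, were chosen after seeing the data. It called 9 members lower, and TMM gave 3. Leaving out each library gave 4 to 16 lower and 0 higher. Leaving out each library gave 27 to 28 higher and 1 to 1 lower per ERCC read, and 17 to 18 higher and 10 to 10 lower on the share. The larger slope in *Tet2*-KO, in 26 members (83.9%, beside 87.3% of all genes), was found in 20 with 10 and 20 min only (64.5%, beside 60.1%) and in 28 with 20 and 40 min only (90.3%, beside 91.2%), and in 24 to 27 when a library was left out.

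Per ERCC read, TMM turned *Meg3* to -0.43, *Rian* to -0.45, *Mirg* to -0.58, *Rtl1* to -0.29, *Grb10* to -0.52, *Gnas* to -0.10 and *H13* to -0.076. The fit of 20 min alone turned *Meg3* to -0.13, *Rian* to -0.074 and *Mirg* to -0.23, and that of 40 min alone turned *Rtl1* to -0.10. Of these values from single times, only that of *Mirg* was called (edgeR, adjusted p = 0.0266). On the share, the fit of 10 min alone turned *Rtl1* to 0.20. The cause of these changes, other than the scale under TMM, was not tested. *Mirg* per ERCC read became called without WT 10 min replicate 2 (0.13), KO 10 min replicate 2 (0.14), KO 20 min replicate 1 (0.13) or KO 40 min replicate 2 (0.12). On the share, *Igf2r* became called without WT 10 min replicate 1 (0.07) and with TMM (0.08), as did *Ube3a* with TMM (0.05).

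Same-numbered libraries did not deviate together (correlations of -0.0718 to 0.0642), so the numbers pair nothing. With the replicate block the counts were 17 higher and 10 lower on the share and 27 and 1 per ERCC read, with no call of a member on these averages changed. In the other comparisons the block ended the calls of *Nnat* at 10 min (adjusted p = 0.0518 in place of 0.0447) and *Mirg* at 40 against 10 min in *Tet2*-KO (0.0544 in place of 0.0479) on the share and of *Impact* for the change from 10 to 40 min per ERCC read (0.0655 in place of 0.049), and called *Ndn* at 40 against 10 min in WT (0.0495 in place of 0.052). Depth limits *Ndn*, *Peg12*, *Phlda2* and *Nnat*, and the filter of at least 10 counts in every library left out 4 tested members.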
